A study of Mus musculus with 2 samples.

Results

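The genes of the ciliary zonule and of the microfibrils that form it were examined in 2 cell populations of the mouse eye lens, the cortical fibers and the epithelium. Members were the probes whose single gene symbol in the platform annotation was Adamtsl4, Fbn1, Fbn2, Ltbp2, Mfap2, Fbln1, Fbln2, Fbln5, Lox or Loxl1. Of these 10 genes, 9 had such a probe, on 10 probes in all, among 13709 genes on 15120 probes with 1 symbol. Fbn1 had none, so its intensity was not analysed here and it enters only the promoter counts. The genes were chosen by role with their intensities on these arrays already known, so their differences between cortex and epithelium are given as a description.

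The 2 samples were lens cortex and lens epithelium from mice aged 13 days, with 5 mice in the series. Lenses were soaked in a balanced salt solution and pulled apart with forceps into cortical fibers and into the capsule with the epithelium that adheres to it. No genotype, strain, sex or treatment is given in the sources used here, nor whether the lenses were pooled. Poly(A) RNA of each sample went onto 1 array, so no value has a replicate, and no test or p-value is given.

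The zonule is a ring of fibers that holds the lens to the ciliary body and inserts into the lens capsule near the equator. Its fibers are bundles of microfibrils, polymers of the large glycoprotein fibrillin to which smaller proteins bind, and in the eye they are made largely by the nonpigmented ciliary epithelium. Latent TGF-beta binding proteins and fibulins attach to fibrillin, and lysyl oxidases cross-link elastin and collagen. In humans, loss of FBN1, ADAMTSL4 or LTBP2 function can let the lens slip from its place.

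Among the 9 measured members, 4 were brighter in epithelium by 3-fold or more, 0 were brighter in cortex by that margin and 5 fell short of it. Over all genes, 8.17% passed this rule in the direction of epithelium and 9.41% in the direction of cortex. The genes higher in epithelium were Adamtsl4, Mfap2, Loxl1 and Fbln1. The fifth member above background, Fbln2, was brighter in cortex by 2.01-fold, under the limit. Fbn2, Ltbp2, Fbln5 and Lox were at background on both arrays. The 3-fold rule also required the brighter value to reach its array's median. Intensities are in units of that median, which was 0.998 for cortex and 0.997 for epithelium. A floor at 0.5 of the median (0.499 on both) stood for background. The platform's own detection limit is not known from the table.

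Adamtsl4 and Mfap2 encode proteins that associate with fibrillin. Adamtsl4, a secreted protein related to the ADAMTS proteases that lacks their catalytic domain, stood at 0.563 in cortex and 55.6 in epithelium. The log2 difference, cortex minus epithelium, was -6.63, or 98.8-fold. Of all 13709 genes, 2 had a lower difference, Igfbp5 (0.672 in cortex and 161 in epithelium, log2 difference -7.91) and Sulf1 (0.735 in cortex and 87.3 in epithelium, -6.89). The second probes of both were dimmer and differed less, by -0.02 for Igfbp5 and -2.47 for Sulf1. With probes averaged 0 genes had a lower difference than Adamtsl4, whose 1 probe averaging leaves as it was. With no floor 8 of 13565 did. The cortex value of Adamtsl4 lay between the floor and the array median, so the size of the fold rests on a dim spot. With the floor raised to the array median it was at least 55.7-fold.

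Mfap2 encodes MAGP-1, a small glycoprotein of the microfibril. Its intensity was 3.47 in cortex and 57.9 in epithelium, both above the array medians. The log2 difference was -4.06, or 16.7-fold, and 61 genes had a lower one. Adamtsl4 was near background in cortex, whereas Mfap2 stood above the array median there.

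Of the lysyl oxidase members, Loxl1 cleared the floor on both arrays and Lox on neither. Loxl1, an enzyme linked to elastic fiber assembly, stood at 20.8 in cortex and 134 in epithelium. It was 6.44-fold brighter in epithelium, a log2 difference of -2.69, with 314 genes lower. Loxl1 was well above the median on both arrays, so it had a signal in cortex as well. Lox, the founding member of this enzyme family, was below the floor on both arrays, at 0.240 in cortex and 0.321 in epithelium, and no fold is given.

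The fibulins, calcium-binding glycoproteins that join microfibrils to elastin and to basement membrane, went different ways. The brighter Fbln1 probe was below the floor in cortex (0.264) and stood at 2.34 in epithelium, which is at least 4.69-fold brighter there. The other Fbln1 probe was below the floor on both arrays, at 0.401 in cortex and 0.0969 in epithelium, so the call rests on 1 probe with a dim signal. Raising the floor to the array median, the bound was 2.35-fold and Fbln1 no longer passed. Averaged over its 2 probes, Fbln1 had a log2 difference of -1.11 and did not pass either.

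Fbln2 had 2.34 in cortex and 1.16 in epithelium, a log2 difference of 1.01. Centred on ribosomal protein genes, a step that put the median of all genes with 2 values over the floor at -0.76 (0.03 with the deposited scaling), Fbln2 differed by 0.09. Fbln5, whose product binds LOXL1 and helps to lay down elastic fibers, was below the floor on both arrays. Its cortex value of 0.499083 was just under that array's floor of 0.499178, and its epithelium value was 0.217.

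**Figure D1:**
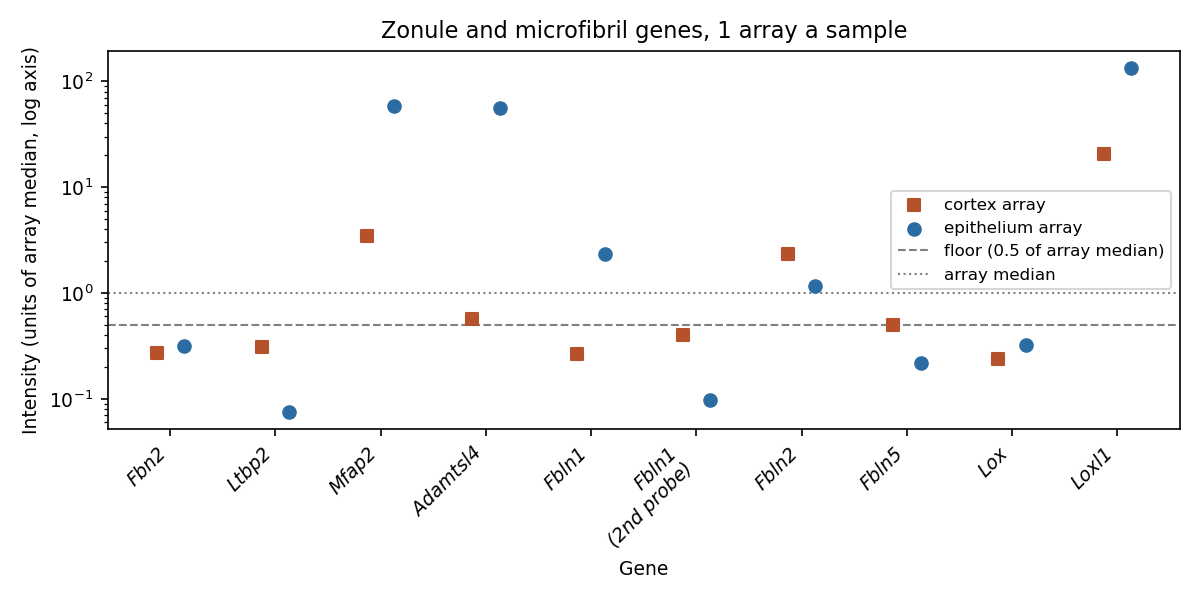
Intensity of each member probe in cortex (squares) and epithelium (circles), in units of the array median on a log axis. The dashed line is the floor and the dotted line the array median. Adamtsl4, Mfap2 and Loxl1 lie far higher on the epithelium array, while Fbn2, Ltbp2, Fbln5 and Lox lie below the floor on both.

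Of the fibrillin and latent TGF-beta binding protein members, Fbn2 and Ltbp2 were below the floor on both arrays, and Fbn1 was not measured. Fbn2, the fibrillin most abundant in embryonic tissue, was at 0.268 in cortex and 0.317 in epithelium. Ltbp2, which encodes a zonule component that does not bind latent TGF-beta, was at 0.306 in cortex and 0.0747 in epithelium. Members at the floor on both arrays made up 44.4% of those measured, against 24.5% of all genes. The median log2 difference was 0.00 over the 9 members and 0.00 over all genes, because genes at the floor on both arrays were given a difference of 0.

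The table's only measure of error is how far probes of the same gene disagree. In 558 genes at least 2 probes cleared the floor on each array, and their log2 differences had a pooled SD of 1.10 and a median SD of 0.59. This spread is between probes on the same 2 arrays and includes no variation between mice. It does not describe the error of a value below the floor, such as that of Fbln1 in cortex. It also leaves out probes at the floor on either array, such as the second probes of Igfbp5 and Sulf1, which disagreed widely with the first. The difference of Adamtsl4 was 6.04 times the pooled SD, that of Mfap2 3.70 times, that of Loxl1 2.45 times and the bound of Fbln1 2.03 times. The difference of Fbln2 was 0.921 times that SD, so its direction is within the disagreement between probes. None of the members had a second probe above the floor.

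**Figure D2:**
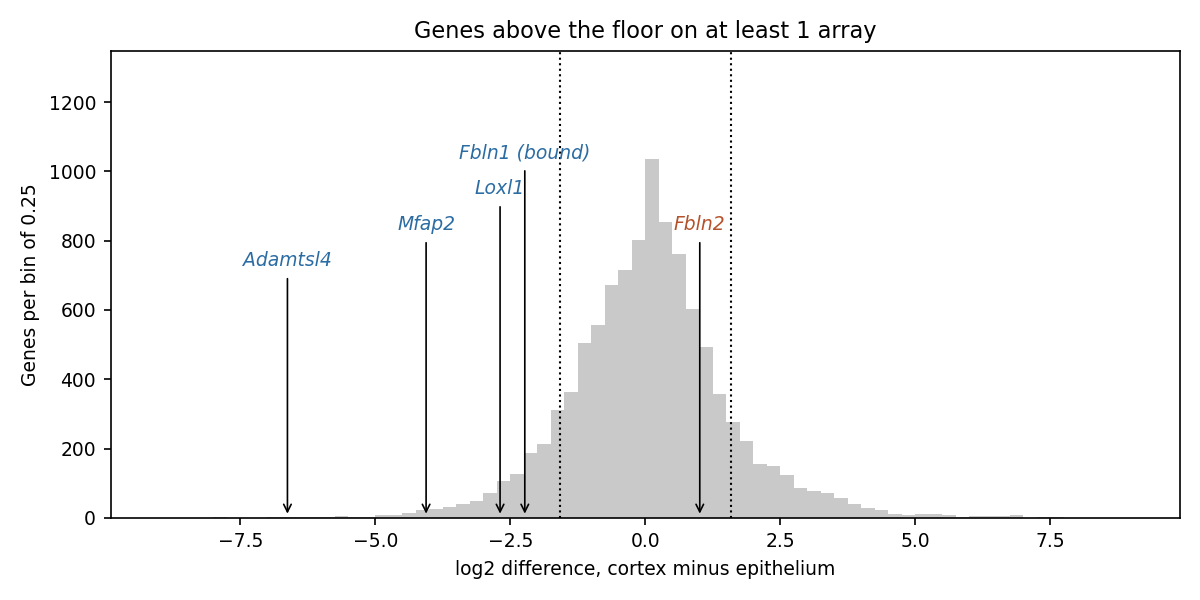
Histogram of the log2 difference, cortex minus epithelium, for the 10346 genes that cleared the floor on either array, in bins of 0.25. Arrows mark the 5 members among them and dotted lines mark 3-fold in each direction. Adamtsl4 lies at the far left edge, and Fbln2 lies inside the 3-fold lines.

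Adamtsl4, Mfap2 and Loxl1 passed the 3-fold rule in the direction of epithelium under each scaling, floor and probe summary tried, and at 5-fold. Each of these genes has 1 probe above the floor on both arrays. Averaging probes, lowering the floor or dropping it therefore could not change their differences. The log2 difference ran between -7.21 and -5.80 for Adamtsl4, between -4.98 and -4.06 for Mfap2 and between -3.61 and -2.69 for Loxl1. Fbln1 ran between -3.15 and -1.11. Fbln2 stayed above 0, between 0.09 and 1.14.

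**Figure D3:**
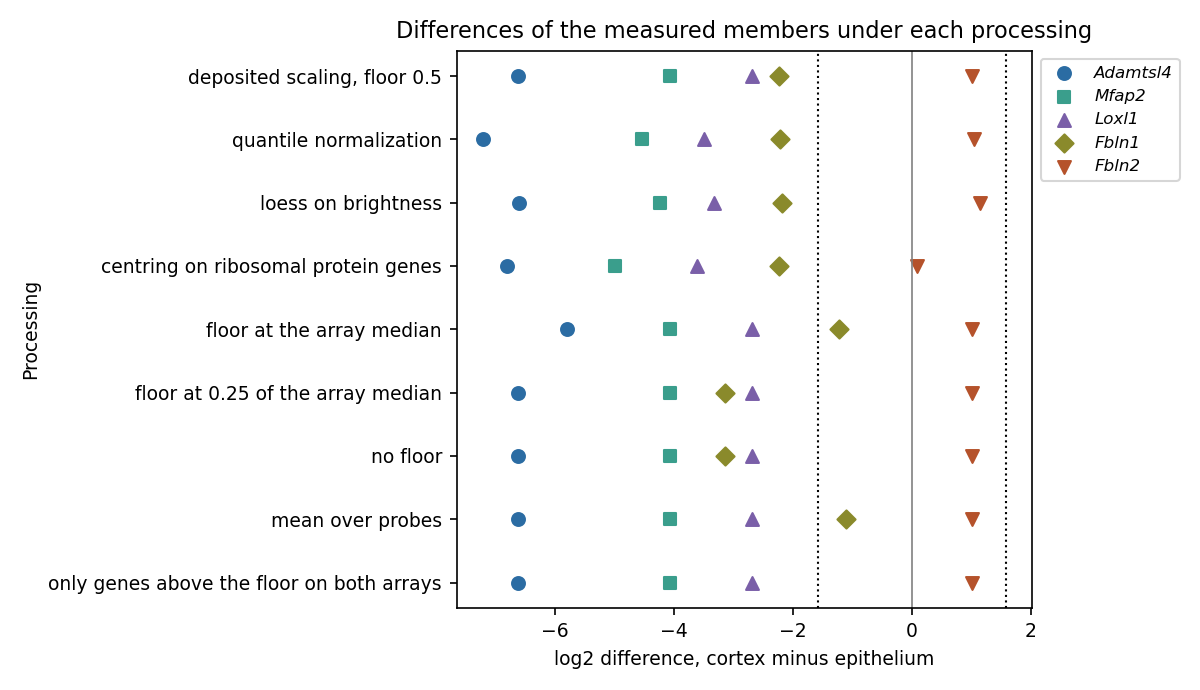
Log2 difference, cortex minus epithelium, of the 5 members that cleared the floor on either array, under each processing (rows). Dotted lines mark 3-fold. Adamtsl4, Mfap2 and Loxl1 stay left of the 3-fold line in every row, and Fbln1 lies right of it when the floor is raised to the array median and when probes are averaged.

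RefSeq promoter entries (GRCm38.p6) were used for 7 of the 10 genes, with 10 start sites. Fbn2, Lox and Loxl1 were left out of the promoter counts, so the member counts describe the other 7 genes only. The 250 bases before each start were searched on both strands for 4 motifs. These were TATAAA, the core promoter element bound by TBP, then GGGCGG, the GC box bound by SP1, then CCAAT, bound by NF-Y, and lastly CAGAC, a core bound by SMAD proteins. TATAAA was in 0 of the 10 windows, against 12.4% of all 32851 promoter windows. GGGCGG was in 7 of the 10 windows, against 32.7% of all, and each of the 7 genes had it before at least 1 of its starts, against 35.4% of all 27025 genes. CCAAT was in 2 windows (33.8% of all) and CAGAC in 5 (42.2% of all). By gene, TATAAA was in 0 of the 7 (14.3% of all genes), CCAAT in 2 (37.5%) and CAGAC in 4 (45.8%). The 2 Fbln1 windows overlap, so the same match can count in both. The GC content of the 10 windows ran between 46.4% and 68.8%, with 7 above the median of all promoters (52.4%). Such matches are descriptions of these letters and not evidence of binding.

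The windows of the 3 members with an entry that passed the 3-fold rule are shown with that of Fbln2, the member measured on both arrays that did not. Where a gene had 2 starts, the window is that of the upstream start. Matches to any of the 4 motifs are in capitals, and no base belonged to 2 matches.
Adamtsl4 (chr3:95687918-95688167, minus strand): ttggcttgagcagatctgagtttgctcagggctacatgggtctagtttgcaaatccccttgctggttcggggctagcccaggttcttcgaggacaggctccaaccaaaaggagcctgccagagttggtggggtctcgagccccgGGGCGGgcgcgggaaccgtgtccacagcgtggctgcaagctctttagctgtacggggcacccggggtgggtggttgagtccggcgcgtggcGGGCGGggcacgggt
Mfap2 (chr4:141010174-141010423, plus strand): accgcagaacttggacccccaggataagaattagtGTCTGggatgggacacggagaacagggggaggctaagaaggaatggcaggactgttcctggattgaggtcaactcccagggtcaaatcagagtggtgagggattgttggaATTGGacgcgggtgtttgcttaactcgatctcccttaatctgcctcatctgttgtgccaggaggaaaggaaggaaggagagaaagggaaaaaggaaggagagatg
Fbln1 (chr15:85205699-85205948, plus strand): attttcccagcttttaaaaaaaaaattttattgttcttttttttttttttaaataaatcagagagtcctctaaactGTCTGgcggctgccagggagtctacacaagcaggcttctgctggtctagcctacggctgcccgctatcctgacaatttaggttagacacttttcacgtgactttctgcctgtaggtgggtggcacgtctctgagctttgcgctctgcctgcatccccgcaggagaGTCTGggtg
Fbln2 (chr6:91212514-91212763, plus strand): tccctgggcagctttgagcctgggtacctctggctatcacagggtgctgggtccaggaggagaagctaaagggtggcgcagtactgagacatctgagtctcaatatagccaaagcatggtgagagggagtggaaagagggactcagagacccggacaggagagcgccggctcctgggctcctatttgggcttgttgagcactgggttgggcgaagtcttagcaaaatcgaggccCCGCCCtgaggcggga
The Adamtsl4 window held 2 GC boxes, and that of Fbln2 held 1. The Mfap2 window held a CCAAT match and a CAGAC match, both on the opposite strand, and that of Fbln1 held 2 CAGAC matches on the opposite strand. The downstream windows of Mfap2 and Fbln1, not shown, held 2 GC boxes and 1 GC box.

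Marker lists were set beside the preparations. They were chosen with earlier results of these data known, so their counts are a description and not a check. All 7 measured lens epithelium markers, Igfbp5 and Sulf1 among them, passed the 3-fold rule in epithelium. Of 8 fiber markers, 7 passed it in cortex. The fiber markers Crybb1, Crygs and Grifin did not pass after quantile normalization, loess or centring on ribosomal protein genes, and Cryba4 did not after quantile normalization or loess. Because the epithelium came with the capsule, markers of tissue at the zonule's other end were examined. The summed intensity of 13 ciliary body genes was 39.6 in cortex and 178 in epithelium. Of these genes, 4 were higher in epithelium (8.17% of all genes were) and 0 in cortex (9.41% of all genes). They were Ptgds, a prostaglandin synthase (7.54 in cortex and 123 in epithelium), Car2, a carbonic anhydrase (2.14 in cortex and 17.4 in epithelium), the homeobox gene Msx1 (1.07 in cortex and 8.36 in epithelium) and Gpx3, a secreted glutathione peroxidase (at least 3.10-fold). Ptgds made up most of the summed intensity in epithelium. A further 5 ciliary body genes fell short of the rule. Zic2 stood at 18.7 in cortex and 20.9 in epithelium, and Slc4a4 at 0.625 in cortex and 0.591 in epithelium. Col9a1 stood at 4.35 in cortex and 2.38 in epithelium, and Col9a2 at 3.71 in cortex and 3.28 in epithelium. Aqp4 was below the floor in cortex and at 0.726 in epithelium. Zic1, Otx2, Wfdc1 and Atp1b2 were at the floor on both arrays. Of 9 pigment cell genes, Oca2 and Tyrp1 were higher in epithelium and Dct in cortex, while Tyr and Gpr143 were at the floor on both. Their summed intensity was 6.41 in cortex and 15.5 in epithelium. Gpx3 and Dct did not pass with the floor raised to the array median, nor did Dct after centring on ribosomal protein genes. The part of ciliary tissue in the higher values of Adamtsl4, Mfap2, Loxl1 and Fbln1 was not tested.

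Of 12 pericyte and mesenchyme markers, 1 was higher in epithelium, Col1a2 (at least 3.35-fold, and not past the rule with the floor raised to the array median), and 8 were at the floor on both arrays, including Col1a1, Col3a1, Lum, Dcn and Postn. The other 3 were above the floor on both arrays and fell short of the rule. They were Acta2 (65.1 in cortex and 41.2 in epithelium), Pdgfrb (4.46 in cortex and 12.9 in epithelium, 2.90-fold) and Tagln (1.41 in cortex and 2.75 in epithelium). The summed intensity of the 12 markers was 72.8 in cortex and 59.5 in epithelium, most of it from Acta2. Over all genes, 8.17% passed the rule in epithelium and 9.41% in cortex. Neither the 7 vascular endothelium markers nor the 8 macrophage markers held a gene past the rule, with Pecam1, Cdh5, C1qa and Lyz2 at the floor on both. Above the floor but short of the rule were Tek (0.928 in cortex and 2.40 in epithelium) and Esam (0.598 in cortex and 0.657 in epithelium). So were Tie1 (0.913 in epithelium, below the floor in cortex) and the macrophage marker Cd14 (0.788 in cortex, below the floor in epithelium). Summed intensities were 3.29 in cortex and 4.63 in epithelium for the endothelium list, and 2.72 in cortex and 1.42 in epithelium for the macrophage list. The free-text description of both samples names fetal liver while titles and source names say lens. None of 5 erythroid markers passed (summed intensity 3.77 in cortex and 2.68 in epithelium), and 1 of 9 liver markers did, Ahsg (185 in cortex and 16.9 in epithelium). Since both samples carry the description, a difference between the arrays cannot decide on it. The summed intensity of the liver list was 190 in cortex and 21.7 in epithelium, most of it from Ahsg. Apoa1, Ttr and Serpina1a were at the floor on both arrays. A further 5 fell short, the brightest of them Trf (1.16 in cortex and 2.26 in epithelium). Fewer cells of a type and less RNA per cell cannot be told apart on these arrays.

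Genes grouped with the members by family, name or role split between the preparations. Among 15 measured relatives, 4 passed the 3-fold rule in epithelium (8.17% of all genes did) and 2 passed it in cortex (9.41% of all genes). A further 6 fell short and 3 were at the floor on both arrays, and the list's median log2 difference was -0.45. Ltbp3, which encodes a carrier of latent TGF-beta, had 0.850 in cortex and 19.5 in epithelium, which is 22.9-fold. Loxl2 (0.623 in cortex and 4.15 in epithelium) and Loxl3 (0.651 in cortex and 4.16 in epithelium), further lysyl oxidase genes, were 6.65-fold and 6.39-fold higher in epithelium. Fbln7 was 3.91-fold higher there. All 3 lysyl oxidase genes that were above the floor therefore passed in the direction of epithelium, and Lox and Loxl4 were at the floor.

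Mfap5, which encodes MAGP-2, the other small glycoprotein of this pair, went the opposite way to Mfap2. It stood at 9.57 in cortex and 0.874 in epithelium, 10.9-fold higher in cortex. Ltbp4 was 3.78-fold higher in cortex (2.70 in cortex and 0.715 in epithelium), against the 22.9-fold difference of Ltbp3 in the other direction. The epithelium values of Mfap5 and Ltbp4 lay between the floor and the array median. Ltbp4 did not pass with the floor raised to that median, nor after centring on ribosomal protein genes. Mfap3, Mfap3l and Emilin2 differed by less than 3-fold, Efemp1 was near equal (0.840 in cortex and 0.791 in epithelium), and Eln, the elastin gene, was at the floor on both arrays.

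Counts in the family of Adamtsl4 were near the background. Of 12 measured ADAMTS and ADAMTS-like genes, 1 passed in each direction, 7 fell short and 3 had no value over the floor. Over all genes, 8.17% passed in epithelium and 9.41% in cortex. The list's median was 0.00. Adamts5, a protease of large proteoglycans, stood at 0.769 in cortex and 2.95 in epithelium (3.83-fold). Thsd4, which encodes ADAMTSL6, a fibrillin-binding protein, stood at 19.9 in cortex and 6.60 in epithelium (3.01-fold). The 2 other probes of Thsd4 differed by 0.51 and 0.80 on the log2 scale. Thsd4 did not pass after quantile normalization or loess, after centring on ribosomal protein genes or when probes were averaged, and Adamts5 did not pass with the floor raised to the array median. Adamts10, linked in humans to a fibrillin disorder with lens dislocation, was below the floor in cortex and stood at 1.20 in epithelium, a bound of 2.41-fold that did not pass. Adamtsl2 was at the floor on both.

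Enzymes that modify secreted matrix proteins were more often past the limit in epithelium than in cortex. Among the 11 measured, 6 passed the 3-fold rule in epithelium (8.17% of all genes did). In cortex 1 passed it (9.41% of all genes), and 4 fell short. The list's median was -2.14. Without the genes at the floor on either array, 4 passed in epithelium and the median was 0.49. The lysyl hydroxylase genes Plod2 (at least 9.02-fold) and Plod3 (5.34 in cortex and 23.5 in epithelium, 4.40-fold) were higher in epithelium. So were the collagen chaperone gene Serpinh1 (5.37-fold) and the prolyl 4-hydroxylase genes P4ha2 (at least 5.10-fold) and P4hb (4.89-fold). P4ha2 did not pass with the floor raised to the array median. Pofut2 adds O-fucose to thrombospondin repeats, which ADAMTS-like proteins carry, and stood at 1.14 in cortex and 5.38 in epithelium (4.71-fold). Asph hydroxylates EGF-like repeats, which fibrillins and fibulins carry, and was 7.02-fold higher in cortex (17.9 in cortex and 2.55 in epithelium), though its second probe differed by 0.32 on the log2 scale and it did not pass when probes were averaged. Pofut1 (1.91-fold) and Poglut1 (1.54-fold), which add sugars to EGF-like repeats, were brighter in cortex and under the limit.

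Among 19 measured matrix proteases and inhibitors, 5 passed the rule in epithelium (8.17% of all genes) and 1 in cortex (9.41% of all genes). The other 13 fell short, 7 of them with no value over the floor, and the list's median was 0.00. Bmp1, which releases procollagen C-propeptides and cleaves the precursor of lysyl oxidase, stood at 7.16 in cortex and 34.8 in epithelium (4.86-fold). Its enhancer gene Pcolce stood at 4.02 in cortex and 107 in epithelium (26.5-fold). The membrane-bound metalloproteinase gene Mmp14 (17.6-fold), Mmp11 (6.38-fold) and the inhibitor gene Timp1 (4.81-fold) were also higher in epithelium. Tll1, a relative of Bmp1, was 3.63-fold higher in cortex (8.22 in cortex and 2.26 in epithelium), and did not pass after centring on ribosomal protein genes. Bmp1 and Tll1 thus formed a further pair of related genes with opposite directions, beside Mfap2 with Mfap5 and Ltbp3 with Ltbp4.

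**Figure D4:**
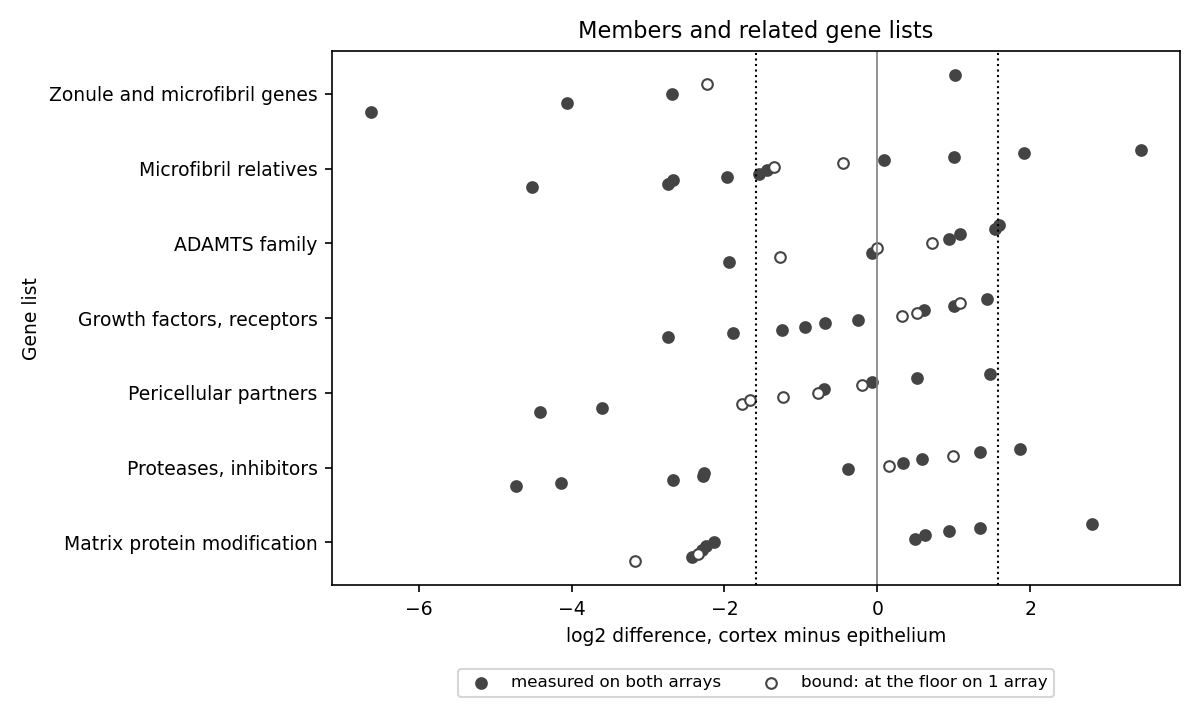
Log2 difference, cortex minus epithelium, of each gene that cleared the floor on either array, for the zonule and microfibril members and 6 related lists. Filled points were measured on both arrays, open points are bounds, dotted lines mark 3-fold, and height within a row only separates the points. Mfap5 and Asph are the points farthest to the right, and the matrix modification genes fall into a group left of the 3-fold line and a group right of 0.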

How the data were processed

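The authors deposited 1 intensity per probe and array for 19819 probes. Per the labels, RNA was hybridized to a 1-colour CodeLink mouse array and the image analysed with CodeLink software. The background and scaling methods were not given in the sources used here. The deposited intensities are linear, with medians near 1 and values below 0 for 161 cortex and 74 epithelium probes. Values were missing for 87 cortex and 97 epithelium probes, which were left out. Platform annotation gave 1 symbol for 15120 probes, several for 38 and none for 4661. List genes were matched through Entrez identifiers.

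Values below 0.5 of the array median were raised to that floor and log2 was taken. This left 65.5% of cortex values and 60.9% of epithelium values over the floor. The brightest probe stood for a gene. A gene at the floor on 1 array has a bound, written "at least N-fold". With 1 array a group, no test was possible and the number of arrays limits the precision. Named genes were all members, and up to 5 genes past 3-fold per list and markers past 3-fold. Others named were chosen after their values were seen. Members and lists were chosen with earlier results of these data known. The procedure was tested on simulated data with changes planted in bright genes only. That test does not cover calls that rest on a value at the floor, such as that of Fbln1. Alternatives were quantile normalization, loess (span 0.3), centring on ribosomal protein genes, other floors, the mean over probes and other fold limits. Python 3.11.15, numpy 2.4.6, pandas 2.3.3, statsmodels 0.14.6 and matplotlib 3.10.9 were used.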

Additional observations from a re-analysis of the deposited data

How the results depend on the processing

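The count of 4 members higher in epithelium was 3 when the floor was raised to the array median, when probes were averaged, at 5-fold and when genes had to clear the floor on both arrays, each time without Fbln1. The count higher in cortex was 1 at 2-fold (Fbln2) and 0 under the other settings. The members' median was -3.37 when genes had to clear both floors, which leaves out 5 members by construction. Over all genes, centring on ribosomal protein genes gave 585 higher in cortex and 2521 in epithelium, against 1290 in cortex and 1120 in epithelium with the deposited scaling. A 2-fold limit gave 2243 in cortex and 2101 in epithelium, and a 5-fold limit 698 in cortex and 477 in epithelium. Over the 6 related lists, 5 genes were higher in cortex, which became 2 after centring on ribosomal protein genes, 3 with the mean over probes, 14 at 2-fold and 2 at 5-fold. The 22 genes higher in epithelium became 12 at 5-fold. The cause of the shift under centring was not tested. The median of the matrix modification list was 0.49 when genes had to clear both floors, against -2.14 with the settings of the report and between -2.35 and -1.35 under the other alternatives. No paired analysis was possible because each group has 1 array. No replicate could be left out for the same reason. Dim spots limit Fbln1, Adamtsl4 in cortex, and the 4 members at the floor.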

Other observations

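Of 19 measured growth factors and receptors that act through microfibrils, 2 were higher in epithelium and 0 in cortex, 10 fell short and 7 had no value over the floor. The share of all genes was 8.17% for epithelium and 9.41% for cortex, so these counts are near the background. After centring on ribosomal protein genes 5 of the 19 were higher in epithelium. That step also raised the count over all 13709 genes, from 1120 to 2521, so the share of 8.17% does not apply to it. The list's median log2 difference was 0.00. Tgfb1, a growth factor stored on microfibrils in latent form, stood at 1.94 in cortex and 13.0 in epithelium (6.69-fold). Its relatives Tgfb2 (11.1 in cortex and 7.28 in epithelium) and Tgfb3 (8.35 in cortex and 3.09 in epithelium) were brighter in cortex, under the limit. Htra1, a secreted serine protease, stood at 27.9 in cortex and 103 in epithelium (3.69-fold). The integrin genes Itgav (66.1 in cortex and 32.9 in epithelium), Itgb1 (5.27 in cortex and 8.45 in epithelium) and Itgb5 (15.2 in cortex and 29.3 in epithelium), whose products form integrins that bind RGD motifs, did not pass.

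Of 16 measured pericellular partners of microfibrils, 4 were higher in epithelium (8.17% of all genes) and 0 in cortex (9.41% of all genes). The other 12 fell short, 5 of them with no value over the floor. The list's median was -0.14. The heparan sulfate proteoglycan genes Sdc4 (1.04 in cortex and 22.0 in epithelium, 21.3-fold) and Sdc2 (3.33 in cortex and 40.6 in epithelium, 12.2-fold) differed most. Their relative Sdc3 (16.4 in cortex and 11.4 in epithelium) did not pass. Vcan (at least 3.41-fold) and Tnxb (at least 3.17-fold) were dim in epithelium and below the floor in cortex, and did not pass with the floor raised to the array median. A second Vcan probe stood at 0.518 in cortex and below the floor in epithelium. The list shares Lum and Dcn, both at the floor, with the pericyte and mesenchyme markers.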
